A study of Mus musculus with 6 samples.

Results

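Red cell precursors in mouse bone marrow were read through 34 genes: transcriptional regulators, the erythropoietin and transferrin receptors, proteins of the red cell membrane and its skeleton, maturation genes and the enzymes and carriers of heme synthesis. They were chosen by symbol, and 33 of the 34 matched a row among the 14992 genes of the count table. Epb42 was not analysed here. All 33 passed the filter on low counts. The study took whole bone marrow from Dnmt3a knockout mice, which lack a DNA methyltransferase that restrains blood stem cells, and transplanted it into irradiated C57/BL6 recipients. The recipients were given vehicle (libraries 1, 2 and 3) or a PI3Kalpha/beta inhibitor at 75 mg/kg (libraries 1, 3 and 5), in both groups over 21 days, and the treatment protocol describes the engrafted cells as leukemic. So both groups carry the knockout and the transplant, and neither holds a marrow with intact Dnmt3a. The labels give no age, no driver or method of the deletion and no full name for the compound, and they do not tell donor cells from surviving host cells. Whether the libraries stem from separate mice is also not stated, and p-values then take in only the spread among these libraries, which may be technical. PI3K passes signals from growth factor receptors to AKT and mTOR, and the series is titled after its place in the disturbed blood formation that follows loss of Dnmt3a.

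Red cells arise from progenitors that switch on the transcription factor GATA1, depend on the hormone erythropoietin for survival and then divide as erythroblasts while they fill with haemoglobin. Iron taken up through the transferrin receptor is built into heme, a pathway that begins and ends inside the mitochondrion and runs through the cytosol between. In the last divisions the cell lays down a membrane skeleton of spectrin and ankyrin anchored to the anion exchanger, expels its nucleus and leaves the marrow as a reticulocyte. The receptors and regulators are on from the progenitor stage, and the skeleton, the erythroid form of aminolevulinate synthase and the maturation genes come later.

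Total counts were between 28198638 and 59384880 per library. No library was a repeat of another, since the closest pair of a group, vehicles 2 and 3, had a chi-square of 31.1 per degree of freedom over genes. The labelled marrow held this lineage by its markers, since every one of the 33 genes was read in every library. Per kilobase of gene length, the vehicle mean of each lay above the median of all tested genes in vehicle (8.74 CPM per kb). CPM is the count scaled to library size, as edgeR gives it. On that scale the vehicle means ran from 9.33 for Xpo7 to 460 for Car2, with a median of 38.7. These means take in vehicle 1, where Tmod1 was at 63.9 CPM against 10.1 and 10.9 CPM in vehicles 2 and 3. With inhibitor the means of Tmod1 and Xpo7 were 3.35 and 5.97 CPM per kb, below the 8.74 of all tested genes in vehicle. The globins could hardly be used as a check. Of 14 genes in that list only 4, none an adult globin, were analysed, and only the minor theta gene Hbq1b was abundant enough to test.

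The erythroid genes differed more within the groups than between them. Together they took 1.19% of all counts in vehicle 1, against 0.426% and 0.465% in the other vehicles. Their share was 0.277% in inhibitor 1, 0.514% in inhibitor 3 and 0.578% in inhibitor 5. Vehicle 1 was thus the highest library and inhibitor 1 the lowest, and between them inhibitors 3 and 5 lay above vehicles 2 and 3. Gene by gene, vehicle 1 was highest for 30 of the 33 and inhibitor 1 lowest for 27, and both held for 26, against 14.2% of all tested genes with the same 2 extremes. Inhibitors 3 and 5 both lay above vehicles 2 and 3 for 26 of the 33, which held for 31.9% of all tested genes. The choice of libraries 1 as the extremes was made after their values were seen. In bulk marrow, fewer red cell precursors and less RNA per precursor cannot be told apart.

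**Figure D1:**
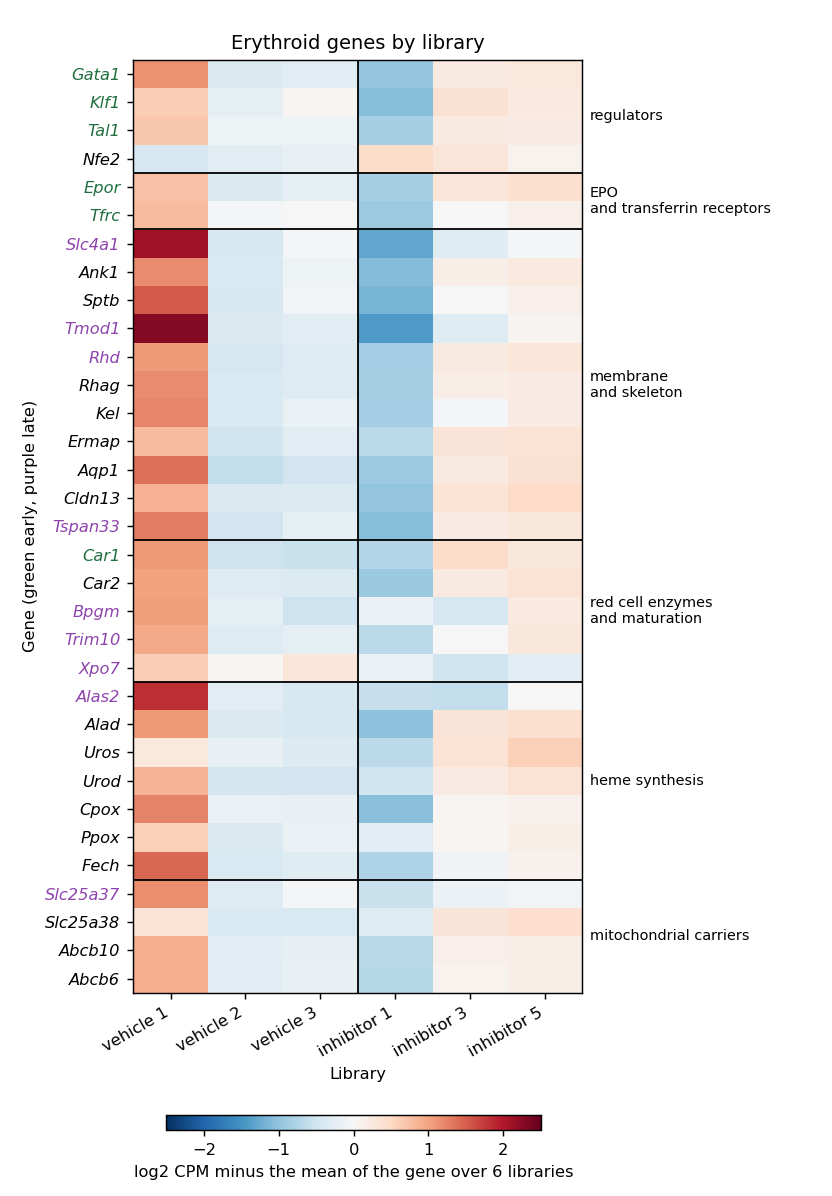
Each row is an erythroid gene, each column a library, and the colour is log2 CPM minus the mean of that gene over the 6 libraries (red higher, blue lower), with rows grouped by role. Vehicle 1 is the highest library for 30 of 33 genes and inhibitor 1 the lowest for 27, and the rows of Nfe2 and Xpo7 run differently from their neighbours.

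Tested between groups, 0 of the 33 genes passed in edgeR's quasi-likelihood test at an adjusted p under 0.05, where 1.83% of all 12806 tested genes did (0.633% higher and 1.19% lower). With an unadjusted p below 0.05 there were 2, against 21.6% of all tested genes. They were Nfe2, the 1 higher (9.68% of all genes), and Xpo7, the 1 lower (11.9%). The same pair had an edgeR adjusted p under 0.10, where 8.25% of all genes did (3.30% higher and 4.95% lower). DESeq2 called that pair too, with 12.1% of all genes called (4.90% higher and 7.23% lower), while limma voom called 0. Library values did not overlap between the groups for these 2 genes and overlapped for the other 31. Groups without overlap were found for 30.7% of all tested genes (14.4% higher and 16.2% lower). No difference between these shares and those of the erythroid genes was tested. Log2 fold changes were below 0 for 30 of 33 genes, with a median of -0.35, where 50.0% of all tested genes were below 0 and their median was 0.00. Without vehicle 1 the sign turned for 22 of the 33, the median was 0.24, 25 lay above 0 against 52.9% of all genes and 8 below against 47.1%. In that fit 0 of the 33 passed while 7.99% of all tested genes did (3.10% higher and 4.89% lower). Inhibitor 1 counted too: without it 11 signs turned, 14 of the 33 lay above 0 and 19 below, and the median was -0.09.

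Among the regulators, Gata1 encodes the zinc finger factor that sets the erythroid and megakaryocytic fate (chromosome X, 7959260 to 7978071, GRCm38). Vehicles 1, 2 and 3 stood at 91.5, 33.0 and 34.7 CPM, and inhibitors 1, 3 and 5 at 21.6, 49.7 and 50.8 CPM, the order of libraries kept below. The 2 lower vehicles lay inside the inhibitor range, and the difference in log2 CPM was -0.38 ± 0.48 (SE, 3 libraries a group; edgeR adjusted p = 0.669). Klf1 encodes the factor that opens the adult beta globin gene and many membrane genes (chromosome 8, 84901928 to 84905291). Its levels were 85.0, 47.8 and 57.9 CPM with vehicle and 26.8, 72.3 and 65.6 CPM with inhibitor, where inhibitors 3 and 5 exceeded vehicles 2 and 3 and inhibitor 1 was lowest. Tal1, the partner of GATA1 in a shared DNA-binding complex, gave 138, 79.1 and 79.3 CPM with vehicle and 49.1, 101 and 100 CPM with inhibitor. As for Gata1 and Klf1, vehicle 1 was highest and inhibitor 1 lowest. Log2 fold changes were -0.21 ± 0.38 for Klf1 and -0.24 ± 0.33 for Tal1 (SE; adjusted p by edgeR 0.773 and 0.699), and without vehicle 1 the values were 0.27 for Gata1, 0.05 for Klf1 and 0.07 for Tal1.

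Nfe2 encodes the large subunit of a factor that acts on globin genes and in platelet formation (chromosome 15, 103248212 to 103258403), and it departed from the other regulators. With vehicle it was read at 225, 250 and 265 CPM (mean 247 ± 20.4, SD, n = 3), with inhibitor at 409, 370 and 319 CPM (366 ± 45.1). Every inhibitor library lay above every vehicle, vehicle 1 was the lowest library and inhibitor 1 the highest, the reverse of the extremes of Gata1. The log2 fold change was 0.57 ± 0.14 (SE; adjusted p by edgeR 0.0813), and DESeq2 called it higher at 0.57 (adjusted p = 0.00706). It was 0.51 without vehicle 1, where the adjusted p was 0.0753, and the adjusted p ran from 0.00706 to 0.523 over all alternatives. In the authors' deposited table its adjusted p is 0.0124. Nfe2 is also read in granulocytes and megakaryocytes. All 9 neutrophil markers tested had log2 fold changes above 0 (50.0% of all tested genes). Of these, 8 had groups without overlap on the higher side (14.4% of all tested genes). Their summed level ran from 38635 to 62153 CPM with vehicle and from 99934 to 119135 CPM with inhibitor, with none of them at 0. The 14 megakaryocyte markers summed to between 120 and 362 CPM with vehicle and between 101 and 406 CPM with inhibitor, also with none at 0. The part of either cell type in the level of Nfe2 was not tested.

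Because GATA1 and KLF1 are themselves in the list, the DNA before the start of the genes was searched for their usual recognition letters. RefSeq promoters (GRCm38.p6) were at hand for 24 of the 33 genes, in 28 windows that cover the 250 bases before a start. A GATA match, meaning AGATAA and TGATAA, or else AGATAG and TGATAG, on either strand, lay in 11 windows (39.3%), against 26.5% of all 32851 windows of the same length. The CACCC forms overlap each other: CCACACCC was in 0 of the 28 windows (3.20% of all), and the looser CCNCNCCC, which includes it, in 16 (57.1%, against 45.9% of all). TGANTCA, the core bound by NFE2, was in 2 windows (7.14%, against 6.75% of all). The 4 early or late genes with the GATA match nearest the start are shown, since they pair an early regulator and the hormone receptor with a late membrane gene and the first heme enzyme. Capitals mark the match, which in the last 3 is read from the other strand, and bases that lie in an annotated exon were left out. The stretches are chr4:134864286-134864535 for Rhd, chr9:21963577-21963826 (minus strand) for Epor, chr8:84901732-84901927 for Klf1 and chrX:150547167-150547374 for Alas2, the others on the plus strand. Counted back from the RefSeq start, the matches begin 43, 54, 80 and 86 bases before it. For Klf1 and Alas2 that start lies past the printed bases, inside the gene span given in the text. A match is a string of letters and not a measured binding site.
Rhd: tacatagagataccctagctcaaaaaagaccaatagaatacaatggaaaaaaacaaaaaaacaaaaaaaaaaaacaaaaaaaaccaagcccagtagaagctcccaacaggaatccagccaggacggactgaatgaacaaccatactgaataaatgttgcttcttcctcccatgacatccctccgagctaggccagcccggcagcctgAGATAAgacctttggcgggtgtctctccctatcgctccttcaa
Epor: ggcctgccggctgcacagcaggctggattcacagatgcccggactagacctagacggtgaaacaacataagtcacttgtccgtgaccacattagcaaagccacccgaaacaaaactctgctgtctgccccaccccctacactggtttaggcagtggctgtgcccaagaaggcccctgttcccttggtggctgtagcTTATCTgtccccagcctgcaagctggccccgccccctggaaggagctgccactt
Klf1: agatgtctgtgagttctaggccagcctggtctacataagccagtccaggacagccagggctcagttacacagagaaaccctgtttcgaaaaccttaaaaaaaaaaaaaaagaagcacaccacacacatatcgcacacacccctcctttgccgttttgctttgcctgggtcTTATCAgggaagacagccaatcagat
Alas2: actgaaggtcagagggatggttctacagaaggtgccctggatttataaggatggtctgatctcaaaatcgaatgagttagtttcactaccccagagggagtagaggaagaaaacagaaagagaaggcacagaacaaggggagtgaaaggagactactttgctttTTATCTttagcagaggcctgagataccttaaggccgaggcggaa

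Epor, the erythropoietin receptor, whose match is shown above, was read at 42.0, 19.7 and 21.3 CPM with vehicle and 14.1, 31.1 and 33.4 CPM with inhibitor. Inhibitors 3 and 5 again exceeded vehicles 2 and 3, and the log2 fold change was -0.08 ± 0.40 (SE; adjusted p by edgeR 0.926). Tfrc, the transferrin receptor that brings iron into every dividing cell and most of all into erythroblasts, was at 784, 446 and 458 CPM with vehicle and 242, 451 and 496 CPM with inhibitor. Here vehicles 2 and 3 and inhibitors 3 and 5 covered the same narrow range, and the value was -0.51 ± 0.33 (adjusted p = 0.405). Without vehicle 1 it was 0.35 for Epor and -0.19 for Tfrc.

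The widest differences between libraries were in the membrane skeleton. Slc4a1 encodes the anion exchanger that anchors the skeleton and carries bicarbonate (chromosome 11, 102348824 to 102366203). It reached 2267 CPM in vehicle 1, against 402 and 521 CPM in the other vehicles and 215, 431 and 515 CPM with inhibitor. Inhibitors 3 and 5 lay within the range of vehicles 2 and 3, and inhibitor 1 lay below them all. The log2 fold change of Slc4a1, -1.46 ± 0.68 (SE; adjusted p by edgeR 0.262), became -0.25 ± 0.33 without vehicle 1. Tmod1, tropomodulin, which caps the short actin filaments of the skeleton (chromosome 4, 46038935 to 46116032), stood at 63.9, 10.1 and 10.9 CPM with vehicle and 4.91, 10.4 and 13.6 CPM with inhibitor. Its range over libraries was 13-fold, the widest of the 33, and its value of -1.55 ± 0.77 (adjusted p = 0.285) became -0.13 without vehicle 1. Tmod1 shares 1287 exon bases with Tstd2 on the opposite strand, which was read at 35.9 CPM with vehicle and 41.5 CPM with inhibitor, and the library chemistry does not mark strand, so part of its count is uncertain.

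Spectrin beta and ankyrin, which form the lattice under the membrane, followed with smaller ranges. Sptb was at 482, 126 and 159 CPM with vehicle and 74.2, 166 and 182 CPM with inhibitor, and Ank1 at 336, 114 and 135 CPM and 69.6, 166 and 175 CPM. In both genes vehicles 2 and 3 lay between inhibitor 1 and inhibitor 3. Their log2 fold changes were -0.86 ± 0.56 for Sptb and -0.51 ± 0.49 for Ank1 (SE; adjusted p by edgeR 0.404 and 0.576). Of the surface antigens, Rhd was at 160, 57.1 and 60.8 CPM with vehicle and 42.1, 88.7 and 94.4 CPM with inhibitor. Rhag, which escorts it to the membrane and conducts ammonia, was at 248, 83.9 and 87.2 CPM and 61.7, 123 and 127 CPM. For Kel, a blood group protease, the values were 119, 38.9 and 45.4 CPM and 28.2, 49.4 and 58.7 CPM. In these 3 genes inhibitors 3 and 5 exceeded vehicles 2 and 3, and the log2 fold changes were -0.30, -0.43 and -0.57, against 0.35, 0.28 and 0.11 without vehicle 1.

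Of the remaining membrane genes, Ermap and Cldn13 had values near 0. Ermap, an immunoglobulin-like protein of erythroblasts, was read at 324, 132 and 155 CPM with vehicle and 118, 235 and 237 CPM with inhibitor, a log2 fold change of -0.05 ± 0.40 (SE; adjusted p by edgeR 0.954). Cldn13, a rodent claudin found on erythroid cells, gave -0.10 ± 0.46 and the tetraspanin gene Tspan33 -0.48 ± 0.53 (adjusted p = 0.917 and 0.623). Aqp1, the water channel, was at 680, 170 and 188 CPM with vehicle and 139, 303 and 341 CPM with inhibitor. Inhibitors 3 and 5 stood clear of vehicles 2 and 3 there, and the value of -0.41 ± 0.58 became 0.54 ± 0.34 without vehicle 1 (adjusted p = 0.713 and 0.349). Aqp1 is also read in endothelium, whose 9 markers, stroma included, summed to 643, 269 and 277 CPM with vehicle and 205, 217 and 359 CPM with inhibitor, with none at 0, and their part in Aqp1 was not tested.

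**Figure D2:**
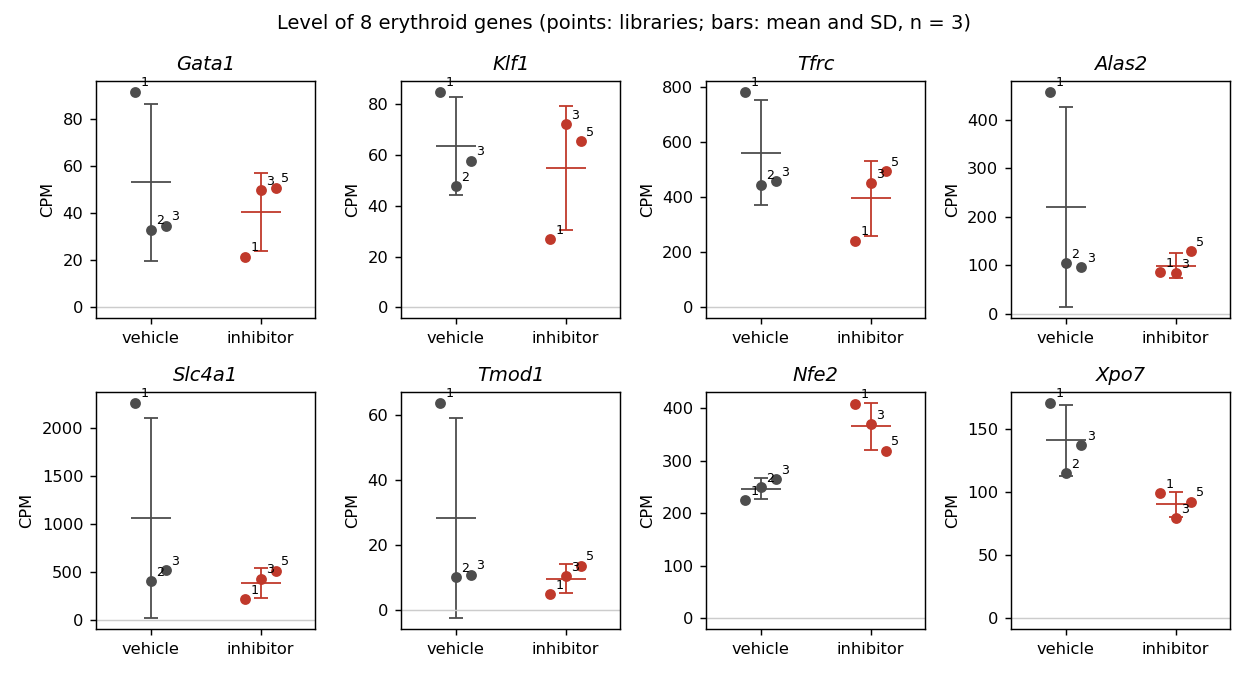
CPM of 8 erythroid genes in each library (numbered points), with the mean and SD of each group (n = 3). For Slc4a1, Tmod1 and Alas2 vehicle 1 alone lies far above the other 5 libraries, while for Nfe2 and Xpo7 the groups do not overlap.

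Among the red cell enzymes, Car1 and Car2 are the carbonic anhydrases that feed bicarbonate to the anion exchanger. With Slc4a1 they had the highest vehicle means per kilobase of the erythroid genes, at 225 and 460 CPM per kb. Car1 was at 507, 170 and 166 CPM with vehicle and 147, 333 and 298 CPM with inhibitor. Apart from vehicle 1 and inhibitor 1 the inhibitor libraries were higher, and the log2 fold change was -0.12 ± 0.50 over all 6 libraries and 0.62 ± 0.31 without vehicle 1 (SE; adjusted p by edgeR 0.912 and 0.248). Car2 was at 1377, 549 and 543 CPM with vehicle and 362, 802 and 878 CPM with inhibitor, with values of -0.27 and 0.32. Car2 also serves osteoclasts, whose 8 markers summed to between 1137 and 2312 CPM with vehicle and between 1764 and 3287 CPM with inhibitor. That sum is mostly Mmp9, and the list was otherwise lower with inhibitor: its 6 tested genes had a median log2 fold change of -1.02, and Ocstamp, highest in vehicle 1, was called lower in edgeR. The part of osteoclasts in Car2 was not tested.

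Of the maturation genes, Bpgm makes the bisphosphoglycerate that loosens oxygen from haemoglobin. It was at 106, 44.0 and 35.8 CPM with vehicle and 46.4, 38.5 and 60.5 CPM with inhibitor, and its lowest library was vehicle 3. Trim10, a ubiquitin ligase gene of terminal erythroblasts, gave 93.3, 38.9 and 41.1 CPM and 30.3, 48.3 and 58.7 CPM. Vehicle 1 stood apart in both, with log2 fold changes of -0.35 ± 0.41 and -0.33 ± 0.39 (SE; adjusted p by edgeR 0.639 and 0.642).

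Xpo7, a nuclear exporter used when erythroblasts condense and expel the nucleus (chromosome 14, 70654246 to 70766628), was the one gene lower in every inhibitor library than in every vehicle. With vehicle its levels were 171, 115 and 137 CPM and with inhibitor 99.0, 79.3 and 92.4 CPM. The lowest library was inhibitor 3 rather than inhibitor 1. The log2 fold change was -0.64 ± 0.17 (SE; adjusted p by edgeR 0.0916), DESeq2 called it lower (adjusted p = 0.0168), and the authors' deposited table has an adjusted p of 0.0201. Without vehicle 1 it was -0.48 (adjusted p = 0.0728), and over all alternatives the adjusted p ran from 0.00885 to 0.331. Per kilobase Xpo7 had the lowest vehicle mean of the 33. It is read in many tissues, and the share of its count from other marrow cells was not tested.

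Heme synthesis was read at 7 enzymes. Alas2, the erythroid aminolevulinate synthase that starts the pathway (chromosome X, 150547375 to 150570638), was at 458, 105 and 96.4 CPM with vehicle and 85.8, 83.8 and 129 CPM with inhibitor. Only vehicle 1 stood out, and the log2 fold change of -1.15 ± 0.60 (SE; adjusted p by edgeR 0.308) became -0.02 ± 0.19 without it. Alas2 shares 311 exon bases with Apex2 on the opposite strand, which was at 7.50 CPM with vehicle and 8.24 CPM with inhibitor. Fech, ferrochelatase, which sets the iron into the ring at the end of the pathway, was at 477, 135 and 142 CPM with vehicle and 103, 164 and 189 CPM with inhibitor. Cpox, which acts between the membranes of the mitochondrion, was at 632, 240 and 237 CPM and 131, 277 and 290 CPM. For both genes vehicle 1 was highest and inhibitor 1 lowest, and the values were -0.73 ± 0.51 and -0.67 ± 0.46 (adjusted p = 0.439 and 0.432).

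Over all 6 libraries the other enzymes of the pathway had log2 fold changes of smaller size than Alas2, Fech and Cpox. Alad, which joins pairs of aminolevulinate, was at 171, 64.0 and 62.7 CPM with vehicle and 40.2, 103 and 109 CPM with inhibitor, a log2 fold change of -0.24 ± 0.50 (SE; adjusted p by edgeR 0.806). Urod, the decarboxylase that follows ring closure, gave -0.05 ± 0.40, and Ppox, the last oxidase before ferrochelatase, -0.10 ± 0.26 (adjusted p = 0.958 and 0.850). Uros, which closes the ring, had its highest level in inhibitor 5. It was at 42.6, 31.0 and 27.8 CPM with vehicle and 22.4, 44.8 and 53.6 CPM with inhibitor, with a value of 0.25 ± 0.32 (adjusted p = 0.676). Without vehicle 1 the order turned, with 0.41 for Alad, 0.54 for Urod, 0.24 for Ppox and 0.45 for Uros. In that fit Alas2 was at -0.02, Fech at 0.13 and Cpox at -0.04. Across all 7 enzymes the median was -0.24, and 0.24 without vehicle 1.

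Of the mitochondrial carriers, Slc25a37, mitoferrin, which imports iron, was at 504, 181 and 218 CPM with vehicle and 154, 206 and 215 CPM with inhibitor. Vehicles 2 and 3 and inhibitors 3 and 5 overlapped, and the log2 fold change was -0.65 ± 0.38 (SE; adjusted p by edgeR 0.357), or -0.06 without vehicle 1. Slc25a38, which imports the glycine that Alas2 uses, had a value above 0, with 49.7, 30.2 and 30.3 CPM with vehicle and 31.4, 49.0 and 52.2 CPM with inhibitor. Its value was 0.27 ± 0.27 (adjusted p = 0.590). Limma voom with sample quality weights, which gave vehicle 1 a weight of 0.161, called Slc25a38 higher at 0.61 (adjusted p = 0.023) beside Nfe2 and Xpo7, 3 of 33 against 22.3% of all tested genes (10.7% higher and 11.6% lower). The transporters Abcb10, which stabilises mitoferrin, and Abcb6, which moves porphyrins, had values of -0.33 ± 0.36 and -0.36 ± 0.37 (edgeR adjusted p = 0.628 and 0.608). Abcb6 shares 2777 exon bases with Gm29253 on the same strand, for which no level is given, so part of its count may be uncertain.

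**Figure D3:**
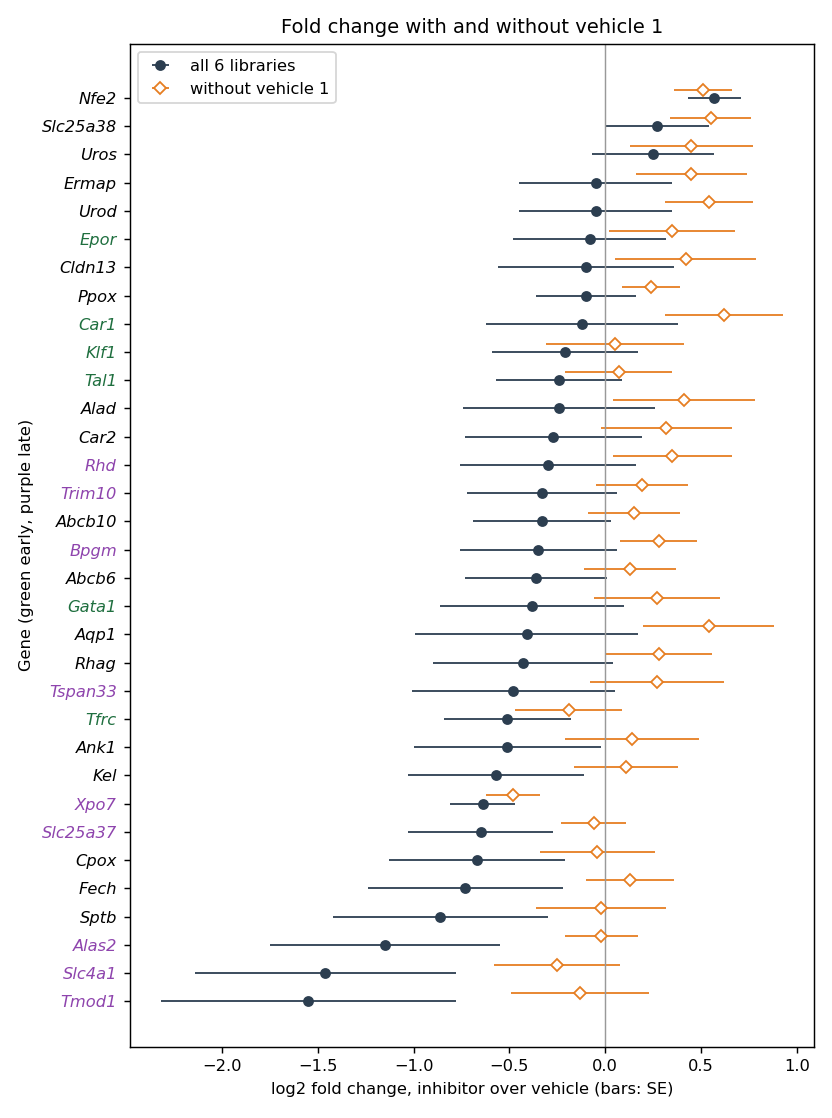
Log2 fold change of inhibitor over vehicle with its SE for each of the 33 genes, over all 6 libraries (filled circles) and without vehicle 1 (open diamonds). Over all libraries 30 genes lie below 0, without vehicle 1 only 8 do, and Slc4a1, Tmod1 and Alas2 shift the most.

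Early and late erythroid genes were then set side by side. The early list held Gata1, Tal1, Klf1, Epor, Tfrc and Car1, and the late list Slc4a1, Rhd, Tmod1, Tspan33, Trim10, Xpo7, Bpgm, Alas2 and Slc25a37. All 6 early and all 9 late genes had log2 fold changes below 0, with medians of -0.23 and -0.64, a difference of -0.42. Without vehicle 1, 5 of 6 early genes and 4 of 9 late genes were above 0, with medians of 0.17 and -0.02, a difference of -0.19. Without inhibitor 1 the early median was 0.08 and the late median -0.50. The late median also lay below the early one with any single library left out, by a difference between -0.58 and -0.19. With 8 more membrane and heme genes in the late list, a choice made after the data were seen, the difference was -0.28. These medians carry no test.

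The mean of log2(CPM + 1) gives the same comparison in each library. Early genes scored 7.35, 6.27 and 6.35 with vehicle and 5.66, 6.79 and 6.78 with inhibitor. Late genes scored 7.80, 6.15 and 6.26 with vehicle and 5.72, 6.24 and 6.53 with inhibitor. Late minus early was 0.45, -0.12 and -0.09 with vehicle and 0.06, -0.55 and -0.25 with inhibitor, so vehicle 1 was the library most weighted to late genes and inhibitors 3 and 5 were the least. Inhibitor 1 overlapped the vehicles, and the group means of 0.08 ± 0.32 and -0.25 ± 0.30 (SD, n = 3) differed by about the spread within a group. The excess of vehicle 1 was itself uneven: against the mean of vehicles 2 and 3 it ran from 1.61-fold to 3.02-fold over early genes (median 1.90-fold) and from 1.35-fold for Xpo7 to 6.08-fold for Tmod1 over late genes (median 2.71-fold). The median of all tested genes was 1.03-fold.

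**Figure D4:**
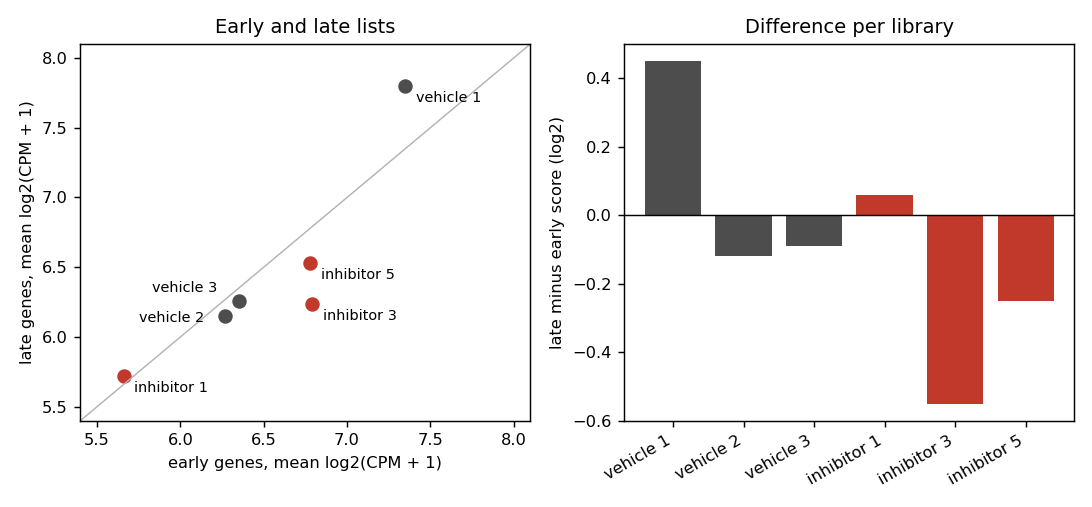
Left, mean log2(CPM + 1) of the 6 early genes against that of the 9 late genes, 1 point per library, with the line of equal scores. Right, late minus early score per library. Vehicle 1 lies above the line at 0.45 and inhibitors 3 and 5 below it at -0.55 and -0.25.

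The wider erythroid program was read from a list of 36 other genes, among them Hemgn and Gfi1b. In edgeR 0 of 36 passed at an adjusted p under 0.05, while an unadjusted p below 0.05 was found for 4 higher and 0 lower, and DESeq2 called 3 higher. That unadjusted p was reached by 9.68% of all genes on the higher side and 11.9% on the lower, and DESeq2 called 4.90% higher and 7.23% lower, so these counts are near the background. Their median was -0.32 over all libraries and 0.22 without vehicle 1, close to the values of the chosen genes. The 4 were Bnip3l, which clears mitochondria from the maturing cell, Myb, a factor of dividing progenitors, Cr1l, a complement regulator of the red cell, and Alas1, the housekeeping twin of Alas2. Myb was at 83.4, 155 and 138 CPM with vehicle and 222, 200 and 259 CPM with inhibitor (log2 fold change 0.85 ± 0.24, SE; adjusted p by edgeR 0.0999). Bnip3l was at 258, 218 and 191 CPM and 343, 318 and 324 CPM (0.56 ± 0.15; adjusted p = 0.0859). Neither gene had vehicle 1 as its highest library, and both are read in other marrow cells. The globin gene Hbq1b shared the excess of vehicle 1 with Slc4a1, at 12.6, 1.77 and 1.38 CPM with vehicle and 0.553, 2.38 and 2.75 CPM with inhibitor. Unlike in Slc4a1, inhibitors 3 and 5 exceeded vehicles 2 and 3, and without vehicle 1 the log2 fold change of Hbq1b was 0.27. Apart from vehicle 1 its levels were low.

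Of 14 genes downstream of the erythropoietin receptor 0 passed in edgeR, while an unadjusted p below 0.05 was found for 3, all lower (11.9% of all tested genes), and DESeq2 called 3 lower (7.23%). The 3 were Cish and Socs3, which damp STAT5 and STAT3 signalling, and Podxl, a sialomucin. Cish was at 18.6, 7.32 and 7.33 CPM with vehicle and 4.72, 3.20 and 3.37 CPM with inhibitor, so its groups did not overlap (log2 fold change -1.56 ± 0.41, SE; adjusted p by edgeR 0.0911). Without vehicle 1 it was -0.96. The part of other marrow cells in Cish, Socs3 and Podxl was not tested. Of 17 genes of cellular iron and heme handling 0 passed in edgeR, while an unadjusted p below 0.05 was found for 1 higher (9.68% of all tested genes) and 3 lower (11.9%), and DESeq2 called 1 lower (7.23%). These counts are near the background. Hmox1, heme oxygenase, which breaks down the heme of engulfed red cells, was at 644, 195 and 227 CPM with vehicle and 80.9, 103 and 88.0 CPM with inhibitor (-1.97 ± 0.45; adjusted p = 0.0691). Unlike the synthesis genes, all 3 inhibitor libraries lay below all 3 vehicles.

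Markers of neighbouring cells were read as well. Macrophages nurse erythroblasts in islands. In edgeR 6 of 15 of their markers were called lower (1.19% of all tested genes). All 15 were lower at an unadjusted p under 0.05 (11.9%), with groups that did not overlap (16.2%). With vehicle the 15 summed to 9121, 2598 and 3067 CPM, with inhibitor to 741, 1094 and 967 CPM, and none was at 0. Vehicle 1 and inhibitor 1 were therefore the extremes for macrophage and erythroid genes alike, but inhibitors 3 and 5, whose erythroid sums of 5389 and 5778 CPM exceeded the 4066 and 4391 CPM of vehicles 2 and 3, had macrophage sums below them. Megakaryocyte markers, which share GATA1 as their regulator, had a median log2 fold change of 0.72, or 1.42 without vehicle 1. They summed to 362, 132 and 120 CPM with vehicle and 101, 237 and 406 CPM with inhibitor. As for the erythroid sums, inhibitor 1 was lowest and inhibitors 3 and 5 exceeded vehicles 2 and 3, but inhibitor 5 was highest. Vehicle 1 was the highest vehicle for all 14 (46.6% of all tested genes). Of these 14 markers 0 passed in edgeR (1.83% of all tested genes). An unadjusted p below 0.05 was found for 1 higher (9.68%) and 1 lower (11.9%), and DESeq2 called 1 lower (7.23%), so these counts are near the background. Proliferation genes summed to between 4121 and 4334 CPM with vehicle and between 3857 and 4330 CPM with inhibitor, a far narrower range than that of the erythroid genes. The part of these cell types in the erythroid values was not tested.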

How the data were processed

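RNA was measured in 6 libraries, 3 per group, grouped by the treatment in the labels. Per the labels' protocols, RNA went through a SMART-Seq v4 and Nextera XT chemistry without strand marks. STAR, featureCounts and the mm10 build are named in the submitters' processing notes, and their versions are not given in the sources used here. Raw read counts for 14992 genes were deposited by the authors. Beside them the deposited table has gene length and, for the authors' own comparison, its ratio of groups, log2 ratio and p-values, raw and adjusted, by a test that is not given.

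Counts were fitted with edgeR 4.0.16 in R 4.3.3: filterByExpr (12806 genes tested), TMM-scaled library sizes and a quasi-likelihood F test of group, with Benjamini-Hochberg adjustment over all tested genes at 0.05. CPM uses TMM-scaled sizes. Standard errors are the log2 fold change over the square root of F. The common biological coefficient of variation was 25.2%. Scores are means of log2(CPM + 1). Alternatives were other scalings and filters, DESeq2 1.42.0, limma 3.58.1 voom with and without quality weights, each library left out and the replicate number as a block. The edgeR, DESeq2 and plain voom fits were tested on simulated data. Every gene had the same dispersion there and no library was made an outlier, so a library like vehicle 1 was not covered. Gene spans are from GENCODE on GRCm38, the assembly of mm10, and promoters from RefSeq.

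The members, lists, early and late stages and tests were chosen with earlier results of these data known. All 33 genes are named. Genes of other lists are named from those called and the 4 with the smallest p in each.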

Additional observations from a re-analysis of the deposited data

How the results depend on the processing

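Over all genes edgeR called 81 higher and 153 lower, DESeq2 628 and 926, limma voom 30 and 55, voom with quality weights 1374 and 1483, an adjusted p under 0.10 gave 422 and 634, and with each library left out the counts ran from 0 to 401 higher and from 0 to 633 lower. Erythroid genes called were 1 higher and 1 lower by DESeq2 and at an adjusted p under 0.10, 2 and 1 with quality weights, and 0 in the other fits, each library left out included. The groups share the replicate numbers 1 and 3, whose libraries had correlations of -0.514 and -0.103 between their deviations from the group means. Whether equal numbers mark a pair is not stated. These correlations cannot decide it, since each mean is of only 3 libraries. With the replicate block edgeR called 0 genes higher and 7 lower and 0 erythroid genes. In that fit Uros was at -0.12, and the medians were -0.69 for all erythroid, -0.62 for early and -0.90 for late genes. A library whose number occurs in only 1 group adds nothing to the group difference there. These values thus rest on the libraries numbered 1 and 3, vehicle 1 and inhibitor 1 among them, and not on every library.

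Without vehicle 1, 22 of 33 signs turned, without inhibitor 1, 11, and without inhibitor 5, 1, and the cause was not tested. With quality weights the median of the erythroid genes was 0.24 and that of the early genes 0.30. Single values were 0.36 for Gata1, 0.24 for Klf1, 0.20 for Tal1, 0.44 for Epor, 0.23 for Ank1, 0.04 for Sptb, 0.42 for Rhd, 0.35 for Rhag, 0.11 for Kel, 0.55 for Ermap, 0.57 for Aqp1, 0.50 for Cldn13, 0.35 for Tspan33, 0.76 for Car1, 0.38 for Car2, 0.039 for Bpgm, 0.19 for Trim10, 0.50 for Alad, 0.56 for Urod, 0.04 for Cpox, 0.25 for Ppox, 0.11 for Fech, 0.23 for Abcb10 and 0.19 for Abcb6. With plain voom Urod was at 0.039. With each library left out the medians ran from -0.55 to 0.24 for all erythroid genes, from -0.42 to 0.17 for early and from -0.78 to -0.02 for late genes, and the late minus early difference from -0.58 to -0.19. Single values ran from -0.63 to 0.27 for Gata1, -0.45 to 0.13 for Klf1, -0.39 to 0.075 for Tal1, -0.28 to 0.35 for Epor, -0.78 to 0.14 for Ank1, -0.55 to 0.35 for Rhd, -0.69 to 0.28 for Rhag, -0.85 to 0.11 for Kel, -0.28 to 0.45 for Ermap, -0.73 to 0.54 for Aqp1, -0.34 to 0.42 for Cldn13, -0.78 to 0.27 for Tspan33, -0.38 to 0.62 for Car1, -0.5 to 0.32 for Car2, -0.63 to 0.28 for Bpgm, -0.55 to 0.19 for Trim10, -0.48 to 0.41 for Alad, -0.002 to 0.55 for Uros, -0.27 to 0.54 for Urod, -0.28 to 0.24 for Ppox, -1.03 to 0.13 for Fech, -0.53 to 0.15 for Abcb10 and -0.56 to 0.13 for Abcb6. Without inhibitor 5 Uros was at -0.0023. Scaling moved the median of all genes by less than 0.1 on the log2 scale. With 3 libraries a group, differences of this size could not be told from the spread between libraries.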
